A study of Mus musculus with 21 samples.

Results

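Loss of the RNA-binding protein PTBP1 was compared between the light zone (LZ) and the dark zone (DZ) of the germinal centre. The measurement is a difference of differences, called the interaction here: the log2 difference of conditional knockout (cKO) minus control in the light zone, minus the same difference in the dark zone. A positive value means that cKO minus control was greater in the light zone, and a negative value that it was greater in the dark zone. All 16 mRNA sequencing libraries of the series, out of 21 samples in all, entered this contrast, as 4 groups of 4 libraries. The other 5 samples are iCLIP libraries, which map where PTBP1 touches RNA, and were used only to describe genes.

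Germinal centres form in the spleen and lymph nodes after immunisation. B cells divide and mutate their antibody genes in the dark zone, then move to the light zone, where they take up antigen and compete for help from T cells. Selected cells induce the transcription factor MYC, grow, and return to the dark zone to divide again. PTBP1 binds pyrimidine-rich RNA and controls splicing, stability and translation of its targets, and represses its paralogue PTBP2 in many cells.

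Control mice carried the genotype CD79a+/+Ptbp1fl/fl and cKO mice CD79acre/+Ptbp1fl/fl, all on C57BL/6. Every group therefore held loxP-flanked Ptbp1 alleles, and only the cKO groups held the Cre gene, which sits in the Cd79a locus and acts in the whole B lineage from early development. Effects of PTBP1 loss and of the Cre allele cannot be told apart. Cells were sorted 7 days after NP-KLH in alum, a protein-bound hapten with an adjuvant, from splenocytes pooled from 3 to 5 mice of 1 genotype and 1 sex. Ages are not given in the labels. Both zones were sorted from each of the 8 pools, and control and cKO pools of the same replicate number were sorted on the same day. Sort days 1 and 2 used males and sort days 3 and 4 females, so day and sex cannot be separated. Library depth was 26823882 to 34240096 gene counts. B cell markers (9 genes) summed to 7720 to 13409 CPM, counts scaled to library size, and germinal centre markers (10 genes, among them Bcl6) to 2224 to 4132 CPM, with none at 0 in any group.

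No gene passed the test of the interaction. Among 15789 genes tested with edgeR's quasi-likelihood test, with each pool as a block, 0 (0%) reached a Benjamini-Hochberg adjusted p under 0.05, and the smallest adjusted p in edgeR was 0.14, shared by 10 genes. At an unadjusted p under 0.05 there were 1013 genes (6.42%), 498 positive (3.15%) and 515 negative (3.26%). DESeq2 on the same libraries called 36 genes, 21 positive and 15 negative, and limma on the pool differences called 0. The median interaction over all genes was -0.0155 and its median size was 0.204 on the log2 scale, with 52.2% of genes below 0. The precision was highest in well-expressed genes: among 9022 genes with an average log2 CPM of at least 3, the median standard error (SE) was 0.153, and in 8312 of them (92.1%) the 95% interval lay within 1 log2 unit of 0. For most of these genes, an effect of PTBP1 loss that differed more than 2-fold between the zones was therefore outside the interval. Smaller differences can lie within the intervals, whose median half-width over the 9022 genes was 0.342 log2 units. In bulk RNA fewer cells of a type and less RNA per cell cannot be told apart.

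The targeted gene was low in the cKO libraries of both zones. In control pools 1 to 4, Ptbp1 stood at 367, 353, 420 and 388 CPM on the light zone side and at 416, 424, 448 and 486 CPM on the dark zone side. The cKO pools had 94.4, 96.2, 121 and 82.5 CPM in the light zone and between 92.1 and 114 CPM in the dark zone. No cKO library overlapped a control library. The light-minus-dark difference within a pool was -0.09 to -0.33 in control and -0.27 to 0.18 in cKO pools, and these ranges overlap. The interaction of Ptbp1 was 0.14 ± 0.10 (SE; 95% interval -0.09 to 0.37; edgeR adjusted p = 0.884), so no difference between zones in the size of the reduction was detected. Counts per gene include any transcript left after deletion of the floxed exons.

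The paralogues gave the same picture. Ptbp2, normally kept low by PTBP1, was 8.6 to 16.7 CPM in light zone control and 14.1 to 19.3 CPM in dark zone control libraries, against 126 to 186 CPM in light zone cKO and 182 to 290 CPM in dark zone cKO libraries. Its interaction was -0.13 ± 0.19 (95% interval -0.56 to 0.31; edgeR adjusted p = 0.965). That of Ptbp3 was 0.19 ± 0.12 (95% interval -0.08 to 0.45; edgeR adjusted p = 0.85). Cd79a, whose product signals for the B cell receptor and which carries the Cre insertion in cKO mice, had zone differences of 0.11 to 0.34 in control pools and 0.42 to 0.72 in cKO pools, without overlap. Its interaction of 0.28 ± 0.08 (95% interval 0.09 to 0.47; edgeR adjusted p = 0.709) did not pass the test. For scale, pools of the 2 genotypes did not overlap in 658 of all genes tested (4.17%).

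Genes that differ with genotype on average over both zones were set beside the interaction. This list of 167 genes (1.06% of those tested; 108 higher and 59 lower in cKO) was formed with limma on pool means, a contrast that does not enter the interaction. The median size of the averaged difference was 0.964 log2 units and the median size of the interaction of the same genes was 0.231, against 0.204 over all genes. All 167 had the same sign in the light and the dark zone, which their choice by the average of both zones largely fixes, so it is a description of the list. The 95% interval of the interaction held 0 in 140 of them, lay within 1 log2 unit of 0 in 110, and lay within the size of the gene's own averaged difference in 102. None passed the adjusted threshold in edgeR, while 27 (16.2%) had an unadjusted p under 0.05, which is more than the 6.42% of all genes. In 15 of these 27 the cKO difference was larger in the light zone and in 12 it was larger in the dark zone. By sign, 13 interactions were positive and 5 negative among genes higher in cKO, and 7 and 2 among genes lower in cKO. Styk1, Itga2b and Fsd1l, which are among the 27, had 3 counts or fewer in a group.

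**Figure D1:**
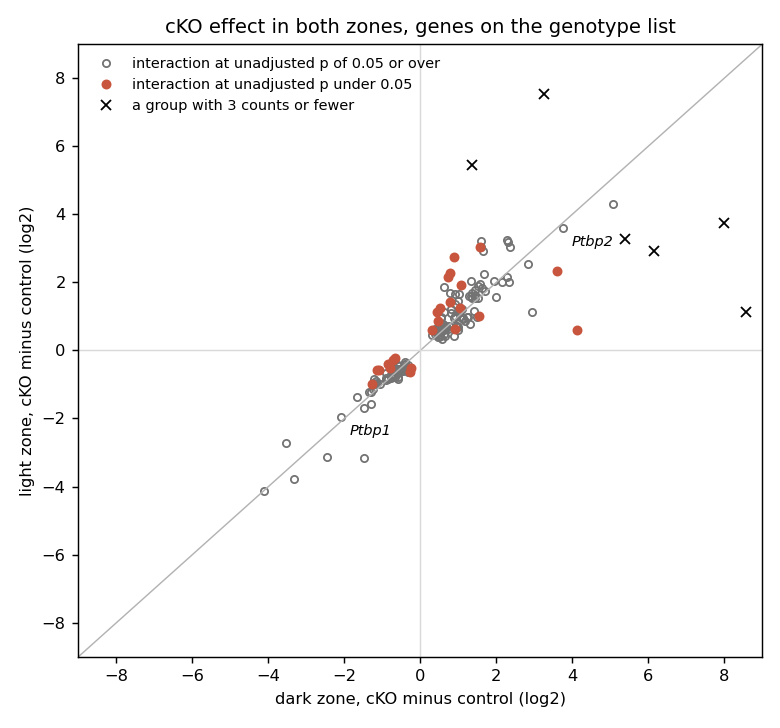
Log2 difference of cKO minus control in the dark zone (horizontal axis) and the light zone (vertical axis) for the 167 genes that differ with genotype on average. Each point is 1 gene, the diagonal marks equal differences, filled points are interactions at an unadjusted p under 0.05, and crosses are 6 genes with 3 counts or fewer in a group, whose fitted values are no measure of fold. All points lie to the lower left or the upper right of 0, which the choice of genes by the average of both zones largely fixes.

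Among genes whose averaged difference passed, Ikzf3, which encodes the lymphoid transcription factor Aiolos, was 365 to 426 CPM in light zone control and 883 to 1002 CPM in light zone cKO libraries. Dark zone control libraries had 427 to 502 CPM, and those of cKO 863 to 1024 CPM. The cKO difference was 1.25 ± 0.08 in the light and 1.03 ± 0.08 in the dark zone, with an interaction of 0.22 ± 0.07 (95% interval 0.06 to 0.39; edgeR adjusted p = 0.742). Lmo2, a transcriptional adaptor of the germinal centre programme, had the larger difference in the dark zone, 0.92 ± 0.10 against 0.61 ± 0.10 in the light zone (interaction -0.31 ± 0.11; edgeR adjusted p = 0.751). Further genes of this kind, picked after their values were seen, were Cyp27a1, a sterol hydroxylase, with 1.43 ± 0.20 in the light and 0.77 ± 0.20 in the dark zone, and Tbxa2r, the thromboxane receptor, with 1.24 ± 0.17 and 0.51 ± 0.17. Socs1, an inhibitor of cytokine signalling, was at -0.28 ± 0.11 in the light and -0.72 ± 0.11 in the dark zone. Their edgeR adjusted p values for the interaction were 0.682, 0.687 and 0.753.

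The zone programme itself was present in both genotypes. With both genotypes averaged, 419 genes (2.65%) were at least 2-fold higher in the light zone and 321 (2.03%) at least 2-fold higher in the dark zone (edgeR adjusted p under 0.05). The light zone genes had a median zone difference of 1.48 in control and 1.38 in cKO cells, and 415 of the 419 kept their sign in each genotype. The dark zone genes had medians of -1.41 and -1.60, and 320 of the 321 kept their sign. The median interaction was -0.0563 for the light zone genes and -0.0106 for the dark zone genes. At an unadjusted p under 0.05, 20 light zone genes were positive and 34 negative, and 17 dark zone genes were positive and 20 negative. Genes called for the average are by construction those that differ by zone, so the similar medians describe the list and are not a test.

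Of 3 well-known surface markers of the zones, none had a zone difference that separated the genotypes. Cxcr4, the chemokine receptor that holds cells in the dark zone, had light-minus-dark differences of -1.0 to -1.18 in control and -1.04 to -1.25 in cKO pools. Cd83, a surface glycoprotein of light zone cells, had differences of 1.85 to 2.15 in control and 1.98 to 2.37 in cKO pools. Cd86, a costimulatory ligand, had 1.09 to 1.28 and 1.24 to 1.46. All 3 pairs of ranges overlap, and the interactions were -0.04 ± 0.09 (95% interval -0.26 to 0.17), 0.15 ± 0.10 (-0.08 to 0.38) and 0.17 ± 0.08 (-0.01 to 0.35), none past the edgeR threshold. The labels do not give the proteins used to sort the zones. The wider list of light zone genes had a median of -0.078, with 20 of 33 below 0, 6 negative at an unadjusted p under 0.05 and 0 positive, against 3.26% of all genes on the negative side. Those 6 were Marcksl1, Lmo2, Myc, Irf4, Ebi3 and Ccnd2, so Cd83 and Cd86 had the opposite sign to the list's median. The pools of the 2 genotypes were separate for Marcksl1 and Myc and overlapped for Lmo2, Irf4, Ebi3 and Ccnd2. In the dark zone Irf4 and Ccnd2 were highest in control library 3 and cKO libraries 2 and 3, where the plasma cell sums given below were also highest. The part of plasma cells in these values was not tested. The dark zone list, which shares 14 genes with the mitosis list, was below 0 in 18 of 23 (median -0.149), with 0 in either direction at an unadjusted p under 0.05 in edgeR. Foxo1, a dark zone transcription factor, had 0.12 ± 0.07 and Bcl6, the master regulator of the germinal centre, 0.16 ± 0.12.

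The 20 genes with the smallest p among those with an average log2 CPM of at least 3, 10 in each direction, had pools of the 2 genotypes that do not overlap. None passed in edgeR, and all 20 are among the 36 called by DESeq2. Of the 10 genes at the smallest adjusted p, 9 are among them, and the other is Igkv1-133, an immunoglobulin light chain segment below that level (interaction -2.58 ± 0.35), whose near-identical copies make its counts uncertain. The 20 genes were chosen by the interaction itself, so the separation of their pools is a description and no support.

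**Figure D2:**
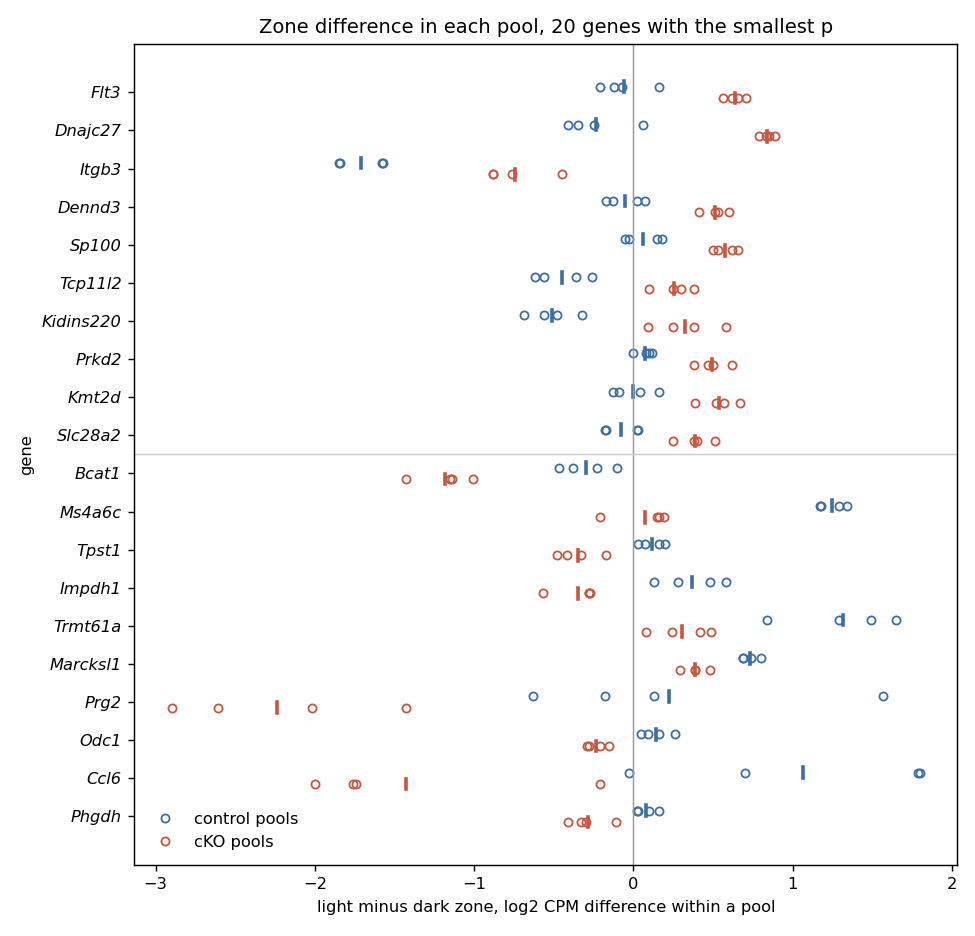
Light-minus-dark log2 CPM difference within each pool for the 10 positive (top) and 10 negative (bottom) interactions with the smallest p. Open circles are pools (4 control, 4 cKO), short bars are means. The cKO pools lie to the right of the control pools in the upper block and to the left in the lower block, and the spread of Prg2 and Ccl6 is widest.

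Flt3, a receptor tyrosine kinase of haematopoietic progenitors and dendritic cells (chr5:147330741-147400489, GRCm38.p6, minus strand), had the smallest p of the positive genes. It was 67, 56.3, 48.5 and 54.8 CPM in light zone control and 145, 123, 111 and 119 CPM in light zone cKO libraries. Dark zone control libraries had 60.1, 59.1, 56.2 and 59.5 CPM, and dark zone cKO libraries 94.8, 74.9, 75.1 and 75.4 CPM. Control cells thus had similar levels in both zones, with pool differences of -0.21 to 0.16, and every cKO pool was higher in the light zone, by 0.56 to 0.71. The interaction was 0.70 ± 0.10 (95% interval 0.48 to 0.92; edgeR adjusted p = 0.14), with a value of 0.63 to 0.78 across the 25 alternatives. Flt3 is also on the list of 11 dendritic cell markers. Without Flt3, the sum of the other 10 was 25.1 to 60.4 CPM in light zone control, 32.6 to 74.3 in light zone cKO, 16.9 to 51.3 in dark zone control and 35 to 87.4 CPM in dark zone cKO libraries, so the groups overlapped in each zone. The list of 11 had a median interaction of -1.062 with 7 below 0, opposite in sign to that of Flt3. Xcr1, which marks a subset of dendritic cells, was 3.76 CPM or less in every library, with an interaction of -1.33 ± 0.70. Clec9a, a marker of the same subset, was 1.61 CPM or less. The part of dendritic cells in the Flt3 interaction was not tested.

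Itgb3, the integrin beta 3 chain (chr11:104608000-104670476, GRCm38.p6), had a smaller zone difference in cKO cells. In control pools it was 14.9 to 23.5 CPM in the light and 45.5 to 84.9 CPM in the dark zone. In cKO pools it was 16.8 to 32 CPM in the light and 31 to 43.7 CPM in the dark zone. The light-minus-dark difference was -1.57 to -1.85 in control and -0.45 to -0.88 in cKO pools, an interaction of 0.97 ± 0.14 (95% interval 0.66 to 1.29; edgeR adjusted p = 0.14). Dnajc27, a small GTPase with a DnaJ domain, had cKO differences of opposite sign in the zones: 0.56 ± 0.12 in the light and -0.51 ± 0.12 in the dark zone (interaction 1.08 ± 0.16; 95% interval 0.73 to 1.43).

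Among the other positive genes, Kidins220, a scaffold of receptor signalling that takes part in B cell receptor signalling, had 0.84 ± 0.13. Its zone difference was -0.32 to -0.69 in control pools and 0.09 to 0.58 in cKO pools, so the sign itself differed. Prkd2, a protein kinase D, had 0.42 ± 0.08, Dennd3, an exchange factor for Rab GTPases, 0.56 ± 0.08, and Sp100, a nuclear body protein, 0.51 ± 0.08. Kmt2d, a histone H3 lysine methyltransferase mutated in germinal centre lymphomas, had 0.54 ± 0.10 while its level varied by day, from 72 to 251 CPM over the light zone cKO libraries. Slc28a2, a nucleoside transporter, was at -0.21 ± 0.09 in the light and -0.67 ± 0.09 in the dark zone, and Tcp11l2 had an interaction of 0.71 ± 0.11. In edgeR the adjusted p was 0.14 for Dennd3, Sp100, Tcp11l2 and Kidins220, 0.359 for Prkd2, 0.363 for Kmt2d and 0.467 for Slc28a2.

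Of the negative genes, Bcat1, the cytosolic branched-chain amino acid transaminase (chr6:144993835-145076157, GRCm38.p6), was 31.1, 25.2, 38 and 31.3 CPM in light zone control and 20.8, 16.9, 37.5 and 23.2 CPM in light zone cKO libraries. Dark zone levels were 40.4, 29.6, 40.7 and 43.4 CPM for control and 46.2, 45.7, 75.9 and 51.1 CPM for cKO. The dark zone cKO libraries were above all dark zone controls, while the light zone groups overlapped. The interaction was -0.89 ± 0.14 (95% interval -1.19 to -0.59; edgeR adjusted p = 0.14).

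Odc1, ornithine decarboxylase, the entry enzyme of polyamine synthesis and a classic MYC target (chr12:17544808-17551502, GRCm38.p6), was 228 to 276 CPM in light zone control and 141 to 204 CPM in light zone cKO libraries. Dark zone control libraries had 205 to 236 CPM, and those of cKO 163 to 236 CPM, so the groups were apart in the light zone and overlapped in the dark zone. Its interaction was -0.37 ± 0.08 (95% interval -0.54 to -0.20; edgeR adjusted p = 0.467). Phgdh, the first enzyme of serine synthesis, was 155 to 220 CPM in light zone cKO against 203 to 242 CPM in light zone control libraries, and 184 to 277 against 199 to 237 CPM in the dark zone (interaction -0.37 ± 0.08; edgeR adjusted p = 0.682). Impdh1, an enzyme of guanine nucleotide synthesis, had -0.72 ± 0.14, and Trmt61a, a tRNA methyltransferase, -1.01 ± 0.20.

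Marcksl1, an actin-regulating MARCKS relative higher in the light zone, was 466 to 555 CPM in light zone control and 291 to 339 CPM in light zone cKO libraries. The dark zone values were 287 to 318 and 222 to 264 CPM. Its zone difference was 0.69 to 0.80 in control pools and 0.29 to 0.48 in cKO pools, an interaction of -0.34 ± 0.07 that did not pass (edgeR adjusted p = 0.467). Ms4a6c, a tetraspanning membrane protein, had 1.17 to 1.34 in control and -0.21 to 0.19 in cKO pools (interaction -1.18 ± 0.18; edgeR adjusted p = 0.14), and Tpst1, a tyrosylprotein sulfotransferase, had an interaction of -0.46 ± 0.09. Prg2, an eosinophil granule protein, had -2.50 ± 0.51, and Ccl6, a chemokine of myeloid cells, -2.45 ± 0.52. Prg2 ranged from 1.29 to 37 CPM over the 16 libraries and Ccl6 from 0.156 to 139 CPM, and markers of other cell types are set beside them further on.

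The gene lists showed where small interactions shared a direction. No member of any list passed the adjusted threshold in edgeR, so each list is described by its counts and median, beside the median of all genes (-0.016), the 52.2% of genes below 0 and the 3.26% of genes that were negative at an unadjusted p under 0.05. All genes' median lies close to 0, and the 3 other scalings moved the median of all genes to between -0.018 and 0.01.

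**Figure D3:**
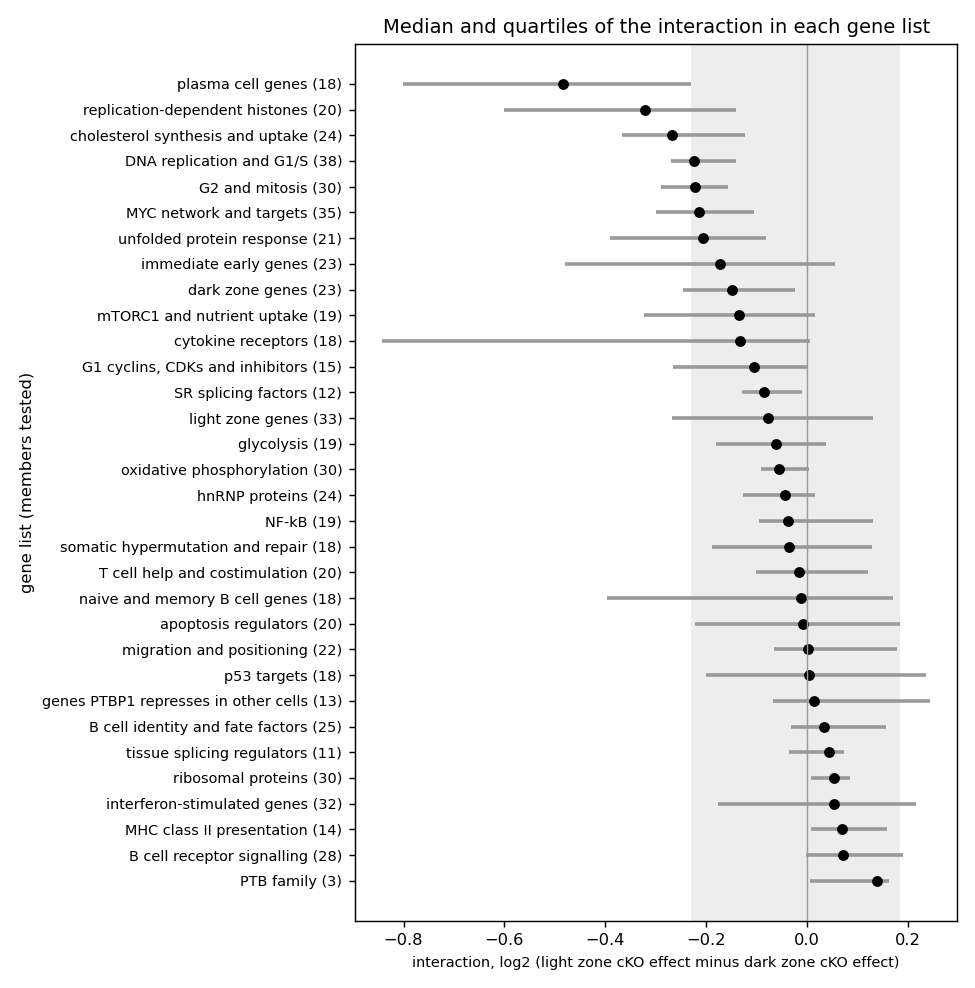
Median (points) and quartiles (bars) of the interaction over the tested members of each gene list apart from the cell type marker lists, with the number tested in brackets, on a log2 scale. The grey band holds the quartiles of all genes tested. Plasma cell genes, histones, cholesterol synthesis, DNA replication, mitosis and the MYC network and targets lie lowest of the lists plotted. B cell receptor signalling is among the lists above 0.

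DNA replication and G1/S genes, the machinery that copies the genome, were below 0 in 38 of 38, with a median of -0.224 and 5 negative at an unadjusted p under 0.05. The median cKO difference was -0.331 in the light and -0.146 in the dark zone. Pold2, a subunit of DNA polymerase delta, had light-minus-dark differences of -0.07, 0.31, 0.37 and 0.30 in control pools 1 to 4 and -0.12, -0.31, -0.09 and -0.14 in cKO pools. Its interaction was -0.39 ± 0.11 (95% interval -0.65 to -0.14; edgeR adjusted p = 0.691). Rfc4, a clamp loader subunit, had -0.32 ± 0.11, and Pcna, the sliding clamp, -0.27 ± 0.11 with overlapping pools.

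Genes of G2 and mitosis were below 0 in 29 of 30, with a median of -0.222, and 0 had an unadjusted p under 0.05 in edgeR. The cKO difference had a median of -0.187 in the light and -0.057 in the dark zone. Cdca8, a chromosomal passenger protein, had -0.39 ± 0.18 (95% interval -0.81 to 0.02) and Birc5, its partner survivin, -0.39 ± 0.19 (-0.81 to 0.03), so both intervals hold 0. Ccnb1, the mitotic cyclin B1, had -0.19 ± 0.15. Replication-dependent histones, made in S phase and without poly(A) tails, had a median of -0.321 with 16 of 20 below 0 and 2 negative at an unadjusted p under 0.05. Poly(A) libraries catch these transcripts poorly and their copies are near identical, so the histone values are uncertain.

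Genes of the MYC network and MYC targets, a list called MYC targets elsewhere, were below 0 in 30 of 35. The median was -0.214, with 13 negative at an unadjusted p under 0.05 and 1 positive. The list also holds other factors of the network, such as Mlx, Mnt and Mxd4, so it is no measure of MYC activity. The cKO difference of its members had a median of -0.202 in the light zone and 0.002 in the dark zone. Myc was 132, 136, 145 and 114 CPM in light zone control and 116, 134, 165 and 102 CPM in light zone cKO libraries, and 54.3, 61.4, 60.1 and 48.7 against 79.7, 67.3, 77.2 and 49.5 CPM in the dark zone. The light zone groups overlapped, and 3 of the 4 dark zone cKO libraries were above all dark zone controls. Its interaction was -0.31 ± 0.12 (95% interval -0.59 to -0.04; edgeR adjusted p = 0.753). Gnl3, the nucleolar GTPase nucleostemin, had zone differences of 0.79 to 0.83 in control and 0.00 to 0.68 in cKO pools (interaction -0.54 ± 0.15), and Nop56, a ribosome biogenesis factor, 0.26 to 0.49 and 0.01 to 0.20 (-0.27 ± 0.08). Cdk4, the G1 kinase, was 331 to 407 CPM in light zone control against 253 to 341 CPM in light zone cKO libraries, and 314 to 379 against 307 to 388 CPM in the dark zone. Its interaction was -0.25 ± 0.07 (95% interval -0.40 to -0.10; edgeR adjusted p = 0.687).

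MYC binds the E-box CACGTG, a motif that reads the same on both strands. In the 250 bases before the start site, from RefSeq on GRCm38.p6, it was found in 9 of the 29 list members with a matched promoter (31.0%), against 1006 of 10430 tested genes (9.65%). The 2 members shown, Cdk4 and the translation factor Eif5a, had the smallest p among the 9 and are printed 5′ to 3′ in the direction of the gene, with the motif in capitals; they were picked after their values were seen. The Cdk4 stretch is chr10:127063285-127063534 on the plus strand with 4 matches, and the Eif5a stretch is chr11:69921387-69921636 on the minus strand with 1 match. Eif5a had an interaction of -0.20 ± 0.08 (95% interval -0.38 to -0.02; edgeR adjusted p = 0.753). A match describes letters in the sequence and not binding. The list was chosen to hold MYC targets, so its higher share of E-boxes is largely set by that choice. The share is no measure of the interaction.
Cdk4: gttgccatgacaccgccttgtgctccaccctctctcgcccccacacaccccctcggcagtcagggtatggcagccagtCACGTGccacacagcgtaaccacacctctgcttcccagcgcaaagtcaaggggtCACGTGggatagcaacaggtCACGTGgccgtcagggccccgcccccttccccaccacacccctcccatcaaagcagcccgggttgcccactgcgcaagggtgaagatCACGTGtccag
Eif5a: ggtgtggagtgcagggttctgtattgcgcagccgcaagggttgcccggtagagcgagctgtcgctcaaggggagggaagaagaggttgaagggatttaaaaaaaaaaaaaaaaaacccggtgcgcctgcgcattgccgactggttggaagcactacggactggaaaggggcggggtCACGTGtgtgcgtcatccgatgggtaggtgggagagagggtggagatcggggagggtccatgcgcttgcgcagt

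Cholesterol synthesis and uptake genes, targets of the sterol-sensing factor SREBP2, were below 0 in 22 of 24, with a median of -0.267 and 7 negative at an unadjusted p under 0.05. The cKO difference had a median of -0.323 in the light and -0.121 in the dark zone, and the zone difference a median of 0.475 in control and 0.227 in cKO cells. Cyp51, lanosterol demethylase, was 246 to 300 CPM in light zone control and 155 to 240 CPM in light zone cKO libraries, and 162 to 192 against 131 to 223 CPM in the dark zone. The light zone groups did not overlap and the dark zone groups did (interaction -0.39 ± 0.11; 95% interval -0.63 to -0.15; edgeR adjusted p = 0.687).

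Genes of mTORC1 signalling and nutrient uptake were below 0 in 13 of 19, with a median of -0.135, 6 negative at an unadjusted p under 0.05 and 1 positive. Asns, asparagine synthetase, was 24 to 39.5 CPM in light zone control and 9.78 to 29.2 CPM in light zone cKO libraries (interaction -0.63 ± 0.16; 95% interval -0.98 to -0.28; edgeR adjusted p = 0.687). Psat1, which follows Phgdh in serine synthesis, had zone differences of -0.11 to -0.24 in control and -0.32 to -0.55 in cKO pools (-0.32 ± 0.08). Slc2a3, a glucose transporter, was at 0.49 ± 0.21.

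**Figure D4:**
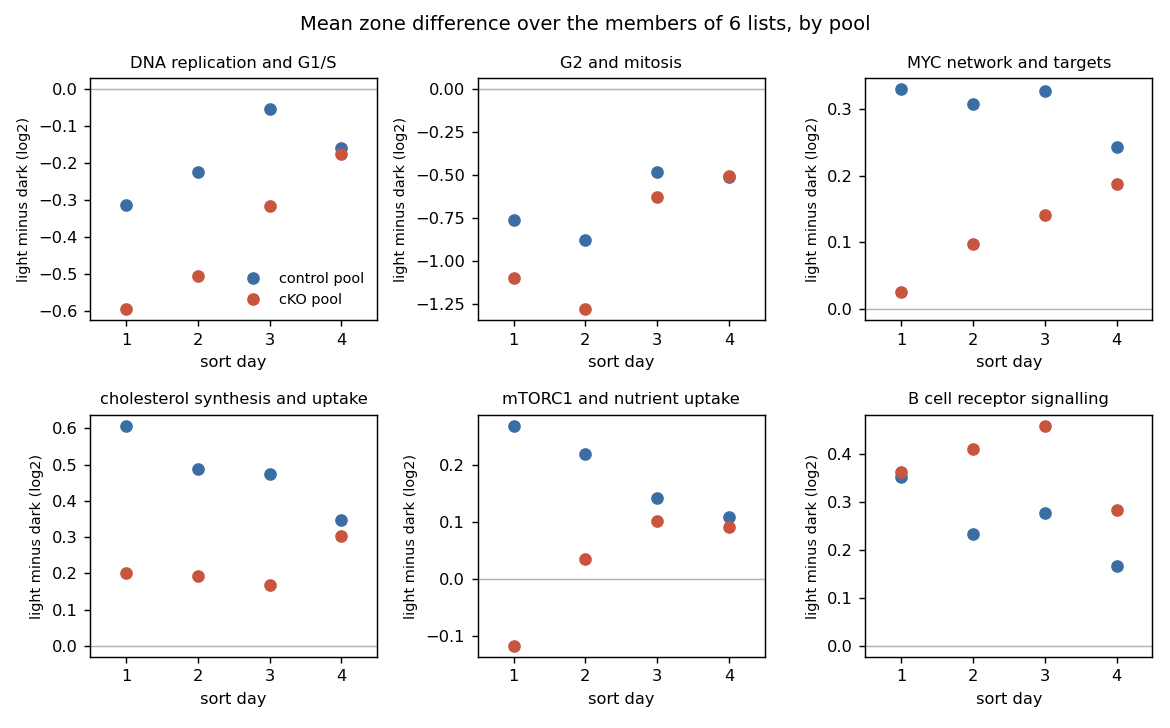
Mean light-minus-dark log2 difference over the tested members of 6 lists (vertical axis, each panel with its own scale) by sort day. Each point is 1 pool, and days 1 and 2 were males. The cKO pool lies below the control pool on all 4 days for DNA replication, MYC targets, cholesterol synthesis and mTORC1, on 3 of 4 for mitosis, and above it on all 4 for B cell receptor signalling, with the smallest gap on day 4 in 5 of the 6 panels.

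Of these 6 list means, 5 had the same sign of cKO minus control on all 4 days, and mitosis had -0.338, -0.402, -0.149 and 0.011. For MYC targets, cKO minus control was -0.303, -0.210, -0.186 and -0.055 on days 1 to 4. For cholesterol genes it was -0.405, -0.296, -0.306 and -0.042, and for DNA replication -0.282, -0.280, -0.263 and -0.015. Day 4 was nearest 0 in each of these. In males alone the list medians were -0.280 for DNA replication, -0.383 for mitosis, -0.220 for MYC targets, -0.344 for cholesterol and -0.338 for mTORC1. In females alone they were -0.145, -0.080, -0.191, -0.218 and -0.108. Sex and sort day cannot be told apart. Leaving out single pools moved some medians by over 1.5 times: DNA replication was at -0.131 without cKO pool 1, and mitosis at -0.138 and -0.083 without cKO pool 1 or 2. The mTORC1 list was at -0.069, -0.263 and -0.259 without control pool 2, 3 or 4, at -0.207 without cKO pool 3, and at -0.041 without sort day 1. No such move was seen for MYC targets or cholesterol genes, but Myc itself was at -0.187 without cKO pool 1.

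B cell receptor signalling genes leaned the other way. Of 28, 21 were above 0 with a median of 0.072, 5 positive at an unadjusted p under 0.05 and 0 negative, against 3.15% of all genes on the positive side. Cr2, a complement receptor of B cells (chr1:195136811-195176880, GRCm38.p6), was 580, 549, 494 and 534 CPM in light zone control and 386, 404, 375 and 287 CPM in light zone cKO libraries. Dark zone control libraries had 185, 207, 164 and 177 CPM, and those of cKO 84.2, 115, 75.8 and 54 CPM. Both zones were lower in cKO without overlap, the dark zone by more: -0.57 ± 0.17 in the light and -1.15 ± 0.17 in the dark zone. The interaction was 0.62 ± 0.13 (95% interval 0.34 to 0.90; edgeR adjusted p = 0.467). Cr2 is also on the list of stromal markers, as follicular dendritic cells carry it. Without Cr2, the stromal sum was 112 to 120 CPM in light zone control, 126 to 175 in light zone cKO, 65.4 to 75.1 in dark zone control and 60.1 to 93.5 CPM in dark zone cKO libraries. Pecam1 alone made up nearly all of this sum, at 112 to 119, 126 to 173, 64.7 to 74.1 and 60.1 to 90 CPM in the same order. Pdgfrb was 1.95 CPM or less and Cdh5 1.23 CPM or less in every library. Of the 11 stromal markers, 3 and 4 had no counts in light zone control and cKO, and 6 and 2 in dark zone control and cKO. Pdgfra had none in any group, while Cxcl13, a chemokine of follicular dendritic cells, had none in either dark zone group and some in both light zone groups. Their part in the Cr2 interaction was not tested.

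Malt1, a protease and scaffold of antigen receptor signalling, had light-minus-dark differences of -0.46 to 0.00 in control and 0.18 to 0.83 in cKO pools, an interaction of 0.58 ± 0.16 (95% interval 0.22 to 0.94; edgeR adjusted p = 0.691). Rasgrp3, an activator of Ras, had 0.25 ± 0.07, and Cd37, a B cell tetraspanin, 0.35 ± 0.10. Among B cell identity factors, Spib, an Ets family factor, had 0.28 ± 0.08 and Foxp1, a forkhead factor, 0.28 ± 0.09. Their list as a whole was even, with 13 of 25 above 0 and a median of 0.034. Genes of MHC class II presentation had a median of 0.069 with 11 of 14 above 0, 2 of them positive at an unadjusted p under 0.05. Leaving out control pool 1 or cKO pool 4 gave B cell receptor signalling a median of 0.126 or 0.124, and leaving out cKO pool 1 gave MHC class II a median of 0.010.

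Several other lists leaned to 1 side with few or no members at an unadjusted p under 0.05. Ribosomal proteins were above 0 in 23 of 30 with a median of 0.053, which was 0.213 in males and -0.120 in females. Genes of oxidative phosphorylation, the mitochondrial respiratory chain, were below 0 in 22 of 30 with a median of -0.055, which was 0.038 in males and -0.154 in females. None of the 30 members of either list had an unadjusted p under 0.05 in edgeR. Immediate early genes, which respond quickly to receptor signals, were below 0 in 16 of 23 with a median of -0.173 and 1 negative at that p, at -0.255 in males and -0.040 in females. Cytokine receptors were below 0 in 13 of 18 with a median of -0.133 and 1 negative. Glycolysis genes were below 0 in 13 of 19 with a median of -0.061, 1 negative and 1 positive.

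Other lists lay nearer to an even split. Interferon-stimulated genes had a median of 0.053, with 20 of 32 above 0, 1 positive and 1 negative at an unadjusted p under 0.05. Their median cKO difference was 0.552 in the light and 0.550 in the dark zone. Irf7, a transcription factor of the interferon response, had an interaction of 0.03 ± 0.13 (95% interval -0.25 to 0.32), and Oasl2, an interferon-induced protein, -0.50 ± 0.29 (-1.14 to 0.15). Genes known to be repressed by PTBP1 in other cells had a median of 0.014. NF-kB genes were at -0.037, T cell help and costimulation at -0.015, apoptosis regulators at -0.008, p53 targets at 0.003, and migration genes at 0.002. Il9r, a cytokine receptor, was 9.5 to 11.2 CPM in light zone control and 48.9 to 131 CPM in light zone cKO libraries, and 4.12 to 13 against 20.5 to 61.5 CPM in the dark zone (interaction 0.57 ± 0.27; 95% interval -0.04 to 1.17). Gpr183, the oxysterol receptor that guides B cell positioning, had 0.38 ± 0.17 (-0.01 to 0.76).

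Markers of several other cell types had negative interactions. T cell markers were below 0 in 14 of 15 with a median of -0.490, NK cell markers in 11 of 12 with -0.873, and erythroid markers in 8 of 10 with -1.229. T cell sums were 333 to 619 CPM in light zone control, 210 to 598 in light zone cKO, 129 to 317 in dark zone control and 114 to 307 CPM in dark zone cKO libraries. NK cell sums were 50.3 to 235, 76.1 to 268, 16.9 to 195 and 104 to 255 CPM in the same order, and erythroid sums 38.8 to 112, 44.3 to 217, 12.1 to 50.2 and 40.1 to 65 CPM. The groups overlapped within each zone, and none of these markers was at 0 in all libraries of a group. Some were at 0 in single libraries, such as the erythroid marker Hba-a2 in dark zone control library 1. Neutrophil markers went the other way, with 7 of the 9 tested above 0 and a median of 0.599, but their median was -1.313 in females alone.

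Plasma cell genes, 18 in all, summed to 2807 to 3947 CPM in light zone control and 2598 to 4056 CPM in light zone cKO libraries. Dark zone sums were 4546, 4896, 11340 and 4606 CPM for control libraries 1 to 4 and 3993, 11955, 15759 and 5264 CPM for those of cKO. Dark zone control library 3 and dark zone cKO libraries 2 and 3 stood apart. The list had a median interaction of -0.484, with 15 of 18 below 0 and 3 negative at an unadjusted p under 0.05, among them Irf4, which drives plasma cell formation, at -1.17 ± 0.48, and Sdc1, the plasma cell surface marker, at -1.05 ± 0.43. The 3 pools whose dark zone library exceeded 10000 CPM were picked by the sum of this same list. Leaving them out moved the list's median to -0.030, a move towards 0 that this choice largely sets. Leaving out control pool 3 alone gave -0.830, cKO pool 2 alone -0.222 and cKO pool 3 alone -0.236.

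**Figure D5:**
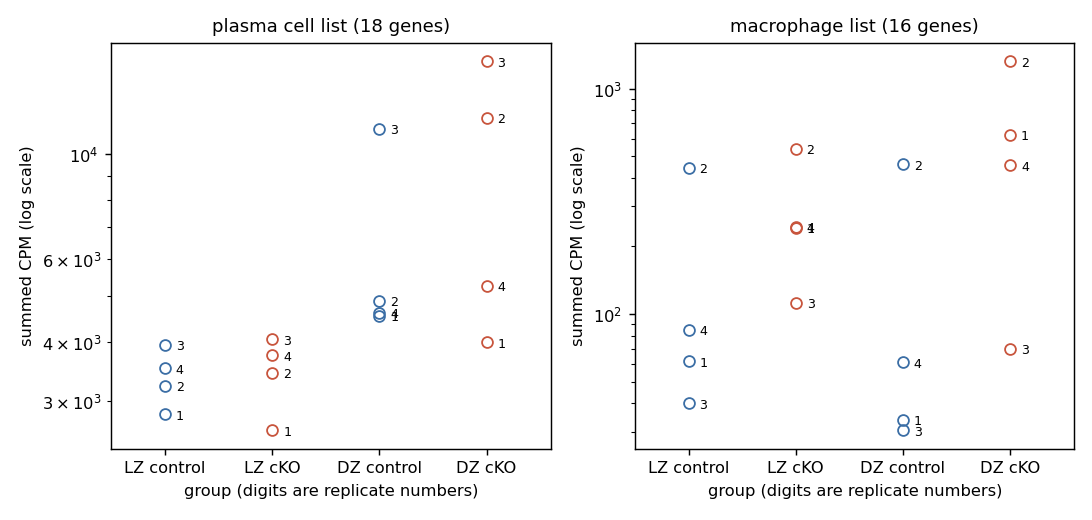
Summed CPM (log scale) of the plasma cell list (left) and the macrophage list (right) in every library, by group. Each circle is 1 library and the digit is its replicate number. Dark zone control library 3 (11340 CPM) and dark zone cKO libraries 2 and 3 (11955 and 15759 CPM) are highest for plasma cell genes, and dark zone cKO library 2 (1323 CPM) is highest for macrophage genes.

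Macrophage genes, 16 in all, summed to 40.1 to 445 CPM in light zone control, 112 to 540 CPM in light zone cKO, 30.4 to 461 CPM in dark zone control and 70 to 1323 CPM in dark zone cKO libraries. All 16 had negative interactions, with a median of -1.626 and 3 at an unadjusted p under 0.05. The median was -2.075 in males and -0.572 in females, and the mean over the list of cKO minus control zone differences was -3.237, -1.132, -0.276 and -1.817 on sort days 1 to 4. None of the defining markers of either list was at 0 in all 4 libraries of a group, but some were at 0 in single libraries. Vcam1 and Fcgr1 were at 0 in light zone cKO library 1 and dark zone control library 1. Their values on sort day 1, -12.06 and -7.79, enter the day 1 mean and are no measure of fold. Lyz2, lysozyme, had -1.34 ± 0.66 (95% interval -2.81 to 0.13; -2.03 to -0.444 over the 25 alternatives) and C1qa, a complement subunit, -2.13 ± 0.76 (-3.82 to -0.44). In dark zone cKO libraries 1 to 4 the macrophage sums were 625, 1323, 70 and 456 CPM. Ccl6, named above, was 44, 139, 3.88 and 50.6 CPM in the same libraries, highest in library 2 and lowest in library 3 as the macrophage sum was. Prg2 was 10.1, 25.8, 37 and 6.84 CPM, highest in library 3, where the macrophage sum was lowest and the plasma cell sum highest. The part of other cells in these interactions was not tested.

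Without the 3 plasma-rich pools, the list medians were -0.162 for DNA replication, -0.093 for mitosis, -0.198 for MYC targets, -0.208 for cholesterol, -0.226 for mTORC1, -0.192 for histones and 0.017 for B cell receptor signalling. The unfolded protein response, which plasma cells use for secretion, had a median of -0.206 with 16 of 21 below 0, and -0.030 without those pools, -0.118 without cKO pool 2 and -0.097 without cKO pool 3. So the medians for mitosis, B cell receptor signalling, mTORC1, histones and the unfolded protein response moved by over 1.5 times. Those for DNA replication, MYC targets and cholesterol moved by less. The pools left out were control pool 3 and cKO pools 2 and 3, so no library of sort day 3 remained. Mitosis was at -0.083 without cKO pool 2 alone, -0.323 without cKO pool 3 alone and -0.151 without control pool 3 alone. At the level of genes, Flt3 was at 0.643, Itgb3 at 0.784, Cr2 at 0.744, Bcat1 at -0.793, Odc1 at -0.320 and Myc at -0.435 without those pools, none past the edgeR threshold.

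Sites of PTBP1 on RNA were taken from the authors' list, called after the cDNA counts of the 5 iCLIP libraries were summed. Those libraries came from splenic B cells cultured with lipopolysaccharide, not from germinal centres. Of the 20 genes with the smallest p, 17 were matched by symbol to a RefSeq gene with a known strand, and 12 of these (70.6%) held at least 1 site, against 49.3% of 10430 tested genes. Sp100 held 208 sites, Prkd2 81, Tpst1 54, Bcat1 43, Ms4a6c 30, Kmt2d 20, Kidins220 18, Flt3 14 and Slc28a2 13. Marcksl1 held 7, Tcp11l2 5 and Dnajc27 4, while Odc1, Phgdh, Impdh1, Trmt61a and Ccl6 held 0. Long or abundant transcripts collect more sites, so the share is a description and no test of binding.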

How the data were processed

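RNA came from 16 sorted germinal centre libraries. Per the labels' protocols, cDNA was made from polyadenylated RNA with a low-input kit. The deposited values are raw counts per Ensembl gene, which the authors made with Trim Galore 0.4.2, HISAT2 and HTSeq on GRCm38, per the submitters' processing notes. The labels give no strand setting or annotation, so overlapping, antisense and near-identical genes are uncertain. The 5 summary lines that name no gene held 41.4% to 49.8% of entries and were left out. The deposited score of the summed iCLIP list is the authors' cDNA count per site, whose sign gives the strand, per the file headers and values; the replicate lists were not used.

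Of 47729 genes, 47224 had a symbol. The test was edgeR's (4.0.16, in R 4.3.3) robust quasi-likelihood test, two-sided, after filterByExpr (minimum count 10) and TMM scaling, with a coefficient for each pool and a zone coefficient per genotype, leaving 6 residual degrees of freedom; the common biological coefficient of variation was 27.6%. Pools pair the zones by design. Deviations from group means of libraries of the same pool correlated at 0.441 to 0.67, and 8 of 8 light zone libraries correlated best with their own pool. Libraries of a group differed by more than sampling noise (chi-square per degree of freedom 23.8 to 183). Zone differences per pool are log2 CPM with a prior count of 2. Differences of cKO and control within a zone come from the fit without the block, so they subtract to the interaction only approximately. Levels are TMM-scaled CPM. The genotype list came from limma 3.58.1 on pool means. DESeq2 1.42.0 was among the 25 alternatives, and the script was tested on simulated data. Named genes are those with the smallest p (10 in each direction, average log2 CPM of at least 3), a panel, and up to 4 members per list with the smallest p; some genes that this rule names are not reported here. The members, the 42 gene lists and the panel were chosen with earlier results of these data known.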

Additional observations from a re-analysis of the deposited data

Results flagged for a closer look

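Each group of 4 pools or libraries was examined for a value whose gap to its nearest neighbour exceeds Dixon's 95% limit as a share of the group's range. Of 98 groups, 10 held such a value, and chance gives about 1 in 20. Among light-minus-dark log2 differences, cKO pool 1 lay apart for Ms4a6c (-0.21), Impdh1 (-0.57), Cd79a (0.72) and Myc (0.54), and cKO pool 3 for Ccl6 (-0.21). In control, pool 2 lay apart for Bcl6 (-0.37) and pool 1 for Ikzf3 (-0.04). Of the summed levels, plasma cell genes lay apart in dark zone control library 3 (11340 CPM), and macrophage genes in light zone and dark zone control library 2 (445 and 461 CPM), which come from the same pool.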

How the results depend on the processing

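With the pool as a replicate block, edgeR called 0 genes, and without the block it called 0 as well, with 466 genes at an unadjusted p under 0.05. A block by pool and sort day, other scalings, other filters, limma, and males or females alone also gave 0. DESeq2 called 36 genes, and the cause was not tested. Leaving out single replicates or sort days gave 0 to 1 calls, and leaving out the plasma-rich pools, chosen after seeing the data, gave 1. That gene was Igha, an immunoglobulin heavy chain gene outside the naming rule, named after its value was seen, at -2.53 ± 0.63 with all pools, and called without control replicate 3, without sort day 3 or without the plasma-rich pools. At an adjusted p under 0.01 the genotype list held 19 genes and the zone lists 452.

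Values under the 25 alternatives were compared for 45 named genes, those with the smallest p and the panel. Genes named only as members of a list were not among them. Of the values of the 45 genes, 1087 kept their direction and side of the threshold, 21 passed it under DESeq2, and 17 changed sign, all near 0. With library size alone, Bach2 was at 0.006. In males alone Cxcr4 was at 0.081, and in females alone Ptbp2 was at 0.082 and Bach2 at 0.043. Without the plasma-rich pools Bach2 was at 0.049 and Irf7 at -0.002. Leaving out replicates gave ranges of -0.080 to 0.050 for Bach2, -0.105 to 0.012 for Cxcr4, -0.251 to 0.105 for Ptbp2, -0.066 to 0.131 for Irf7 and -0.115 to 0.002 for S1pr2. The medians of DNA replication, mitosis, MYC, cholesterol, mTORC1 and B cell receptor signalling lists kept their sign in 25 of 25 alternatives. Precision was lower when scarce genes were included: the median SE was 0.251 over all genes and 0.153 over well-expressed genes.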
